A study of Mus musculus with 6 samples.

Results

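Genes of the non-collagen cartilage matrix were described here through windows of the transcription factor Runx2 that the authors' lists gave to them. The genes were Prelp, Comp, Matn1, Fn1, Cilp, Tnxb and Anxa2, and they were chosen by the gene names that the authors' lists of Runx2 windows carried, so that each had a window in at least 1 list. That a window lay near these genes, and in which list, is therefore a description and not a finding. A window belonged to the group when its deposited gene was one of the 7, or when it overlapped such a window of the other list by at least 1 bp. This gave 10 of 2000 windows, 4 of 1000 in culture with interleukin-1β (IL-1β) and 6 of 1000 in normal culture, at 8 of 1449 sites, and 7 of the 1332 genes named in either list.

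The windows came from chromatin immunoprecipitation with sequencing (ChIP-seq) of primary chondrocytes of 5-day-old C57BL/6 mice with a Biotin-FLAG tag knocked in at Runx2, which both conditions carried. IL-1β is an inflammatory cytokine, added at 1 ng per µL by the labels, while the study's methods give this number per mL. Each condition had 1 anti-FLAG, 1 control IgG and 1 input library, and each list held the windows called from anti-FLAG against input, every window 100 bp wide and numbered from 1, the highest rank. With 1 library per condition no value below has a replicate error and no difference between the conditions was tested. Peak heights and read depth are unknown here, and in cultured cells in bulk a lower rank cannot tell fewer occupied cells from less Runx2 at each. The lists hold no expression values, so the cell type was not checked by expression. Of 4 chondrocyte marker genes outside the group (Col2a1, Acan, Sox9 and Col9a1) 3 were named by a normal-culture window and 2 by an IL-1β window, of 4 fibroblast markers 1 in each, and of 3 macrophage markers 0 in each, where 4.06% and 3.99% of 21900 protein-coding genes were named. These counts use the deposited names. The Acan site was in both lists, but the normal-culture list gave it to Isg20. The group's own Comp and Matn1 are chondrocyte markers too, but were chosen for having a window. The marker lists were also made with earlier results of these data known. Their shares can therefore not be compared with those of all genes, and they do not show the cell type.

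Cartilage matrix is a mesh of collagen fibrils and aggrecan held together by smaller adaptor proteins. Leucine-rich repeat proteins such as the product of Prelp, the thrombospondin Comp, the matrilin Matn1 and the tenascin Tnxb bind fibrils and link them to one another or to proteoglycans. Fibronectin (Fn1) ties the mesh to integrins on the cell, Cilp encodes an intermediate layer protein that binds TGF-β, and annexin A2 (Anxa2) is a calcium-dependent membrane-binding protein that is also found on mineralising matrix vesicles. Runx2 drives chondrocyte hypertrophy and bone formation, and binds DNA through its Runt domain at short words such as TGTGGT.

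The sequence of each site is shown because the sites differed in the words they held. All are from the plus strand of mm9, 5′ to 3′, with 101 bases so that both readings of the deposited start (counted from 0 or from 1) are covered. For the sites found in both lists the IL-1β window is printed. Capitals mark the Runx motif (TGTGGT or TGCGGT, or its complement ACCACA or ACCGCA), the motif of AP-1, the Fos and Jun dimer (TGACTCA or TGAGTCA, each the complement of the other), the CCAAT box (CCAAT or ATTGG) and the E-box CACGTG.
Prelp window, chr1:135838668-135838768: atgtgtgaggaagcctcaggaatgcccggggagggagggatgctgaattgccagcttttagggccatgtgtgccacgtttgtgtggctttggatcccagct
Comp window, chr8:72895922-72896022: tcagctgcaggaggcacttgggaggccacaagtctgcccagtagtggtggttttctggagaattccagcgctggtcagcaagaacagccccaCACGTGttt
Matn1 window, chr4:130671286-130671386: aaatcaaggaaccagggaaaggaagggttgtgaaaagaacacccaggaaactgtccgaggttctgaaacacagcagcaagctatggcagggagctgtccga
Fn1 promoter window, chr1:71700066-71700166: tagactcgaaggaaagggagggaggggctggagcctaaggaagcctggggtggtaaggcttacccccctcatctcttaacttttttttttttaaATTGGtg
Fn1 distal window, chr1:71934614-71934714: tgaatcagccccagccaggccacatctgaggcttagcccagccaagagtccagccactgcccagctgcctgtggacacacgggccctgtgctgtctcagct
Cilp window, chr9:65141856-65141956: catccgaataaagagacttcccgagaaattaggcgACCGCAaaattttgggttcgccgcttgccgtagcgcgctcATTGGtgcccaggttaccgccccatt
Tnxb window, chr17:34818135-34818235: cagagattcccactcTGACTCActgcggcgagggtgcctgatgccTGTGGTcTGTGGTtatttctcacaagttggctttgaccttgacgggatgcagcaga
Anxa2 window, chr9:69306142-69306242: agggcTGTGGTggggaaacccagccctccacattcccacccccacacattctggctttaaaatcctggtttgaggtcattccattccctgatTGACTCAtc

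The Runx motif was in the named windows of Cilp, Tnxb and Anxa2, that is in 1 of 4 windows named in normal culture (2 of 6 with the overlapping windows that the rule added) and in 2 of 4 named in IL-1β. Of all windows 63.4% held it in normal culture (Wilson 95% interval 60.4 to 66.3%) and 59.7% in IL-1β (56.6 to 62.7%), against 8.15% and 9.4% of stretches of the same width 1000 bp to each side. With so few windows, the member counts are given as they are and nothing is read from them. The windows of Prelp, Comp, Matn1 and both windows of Fn1 held no such word. At Prelp a TGTGGT lay just outside, centred 64.5 bp from the window centre, and at the Fn1 promoter a TGTGGT at 55.5 bp did the same. A TGCGGT there lay farther out, at −111.5 bp. When the last base could also be C, the windows of Prelp (TGTGGC), Comp and distal Fn1 (GCCACA in both) held the word as well. The Matn1 window held none of these forms, and the 300 bp around its centre held no TGTGGT or TGCGGT. No member window held the ETS word CCGGAA, which 7.7% of all windows held in normal culture and 5.9% in IL-1β. None held the SOX word AACAAT either, which 1.6% and 2.5% held. From so few member windows nothing is read from these absences.

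**Figure D1:**
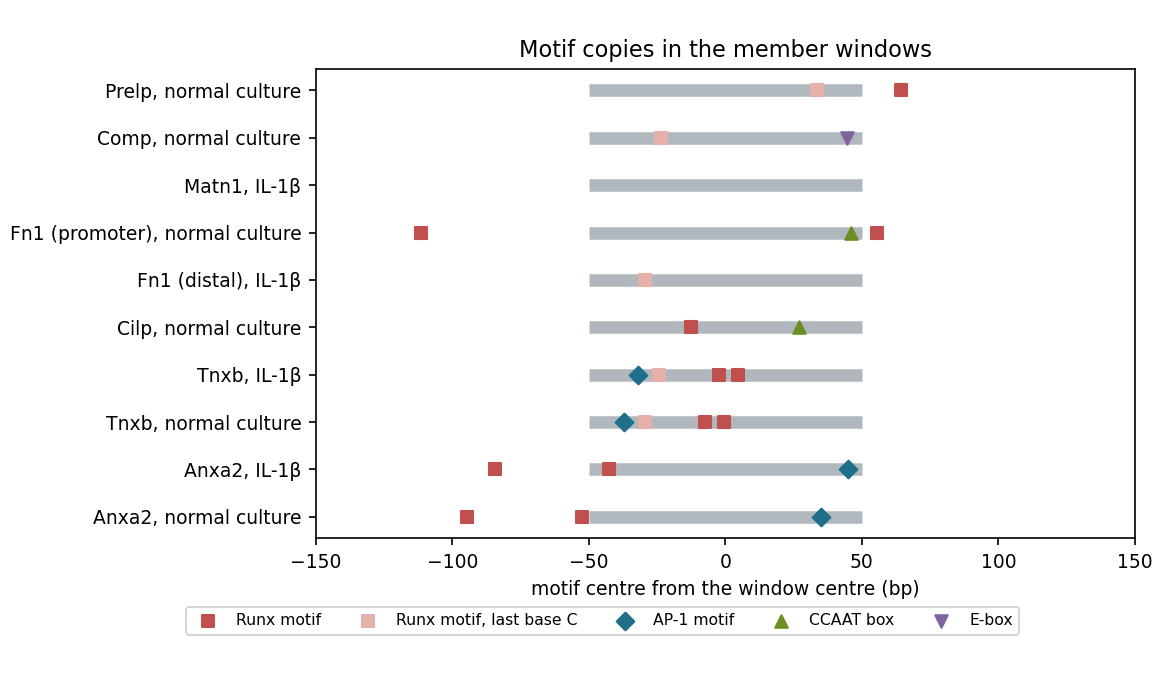
Motif copies in the 10 member windows. Each grey bar is a window, the x axis gives the distance of a motif's centre from the window centre in bp, and coloured marks are motif copies, of which those outside the grey bars are Runx motifs only. Tnxb has a pair of Runx motifs near the centre in both conditions, and the Matn1 window has no mark.

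Among the 8 member sites, AP-1 words stood in the 2 that the conditions shared. The Tnxb and Anxa2 windows each held a TGACTCA, as did the overlapping windows of normal culture, which carry other gene names there. That made 2 of 4 member windows in IL-1β and 2 of 6 in normal culture, where 6.2% and 6.5% of all windows held one, and the words were at the same positions in both. In IL-1β both windows held the Runx and the AP-1 motif together, as 4.7% of all windows did (4.5% in normal culture). These words were searched after the sequences had been seen, and of all shared windows 7.08% held AP-1 (5.22 to 9.53%), against 5.12% (3.44 to 7.57%) of those found in IL-1β alone, with intervals that overlap. A CCAAT word, read as ATTGG on the plus strand, was in the windows of Cilp and of the Fn1 promoter. That made 2 of 4 named in normal culture (2 of 6 with the overlapping windows) and 0 of 4 in IL-1β. Of all windows 11.1% held one in normal culture and 9.1% in IL-1β, against 12.1% and 13.3% of the stretches 1000 bp to each side. The Comp window held the E-box CACGTG, as 2.0% of windows in normal culture did.

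**Figure D2:**
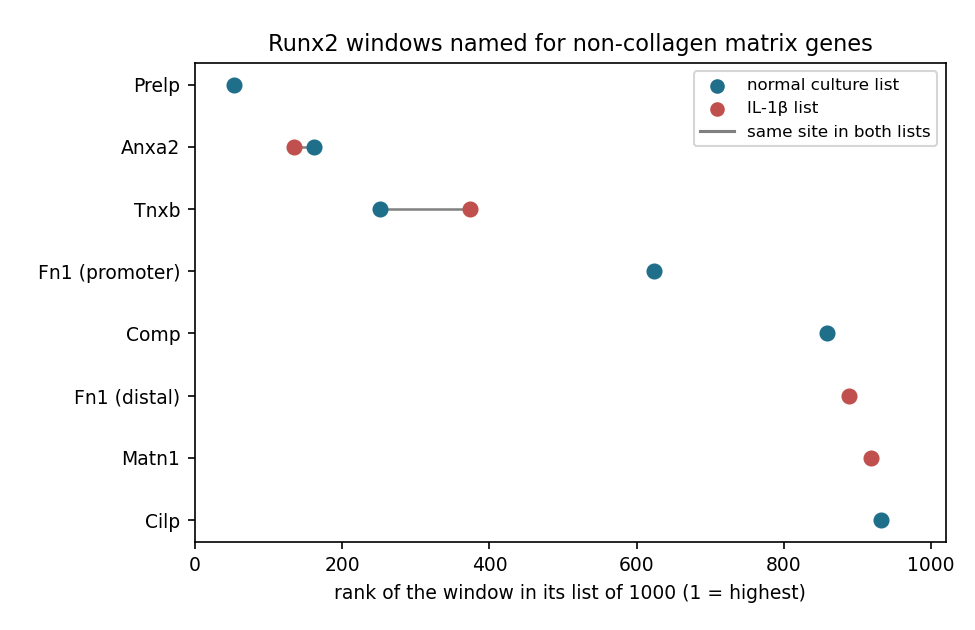
Rank of each member window in its list. The x axis is the rank among 1000 windows (1 is the highest), each row is a site, points are windows of normal culture or of IL-1β, and a line joins the windows of 1 site. Only Anxa2 and Tnxb have a point in both lists, and Prelp has the highest rank, 53.

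Anxa2 and Tnxb were occupied at the same place in both conditions, and the other 6 sites were in 1 list only. Of the member windows, 2 of 4 in IL-1β and 2 of 6 in normal culture overlapped a window of the other list, where 55.1% of all windows did in each list (52.0 to 58.2%). None of the 4 that carried a member's name in normal culture did, since that list gave both shared sites to other genes. The members were chosen with this known. Since each list ends at 1000 windows, a site missing from a list may still have been called below its last rank. The study reported far more raw peaks than that in each condition, and more in normal culture than in IL-1β. Sharing was also lower at lower ranks, so each site was set beside the 100 windows around its own rank. There 91% were shared at the rank of Anxa2 in IL-1β, 65% at that of Tnxb, 46% at that of the Fn1 promoter in normal culture, 32% at Comp, 26% at Cilp, 23% at Matn1 and 21% at distal Fn1. Prelp was unshared at a rank where 93% of the windows around it were shared.

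**Figure D3:**
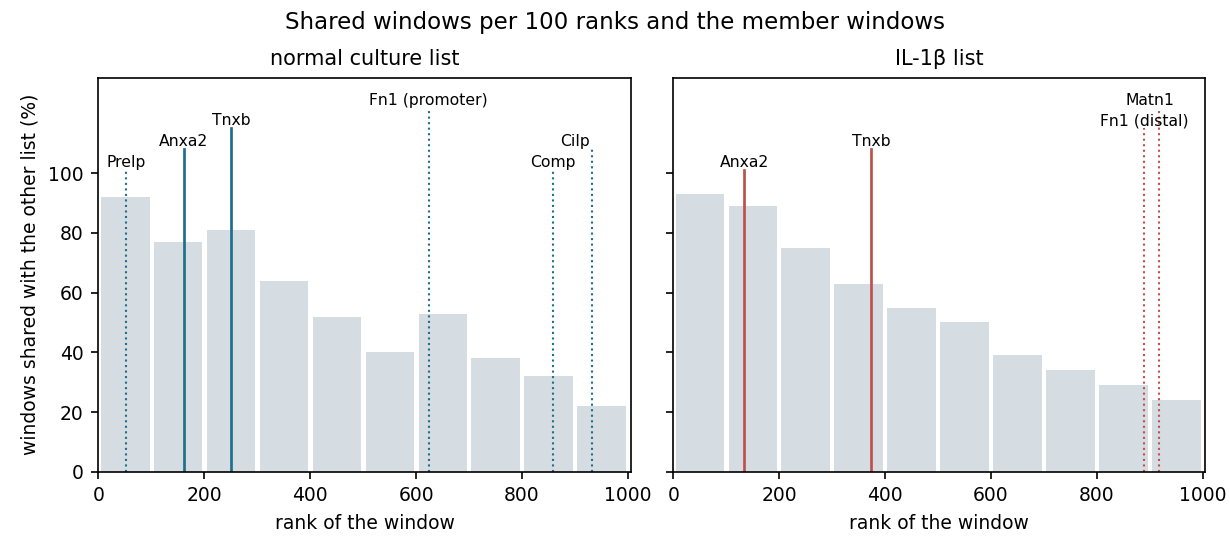
Windows shared with the other list per 100 ranks (bars, in %), by rank (x axis), in normal culture (left) and IL-1β (right). Vertical lines stand at the ranks of the member windows, solid for shared and dotted for unshared sites, and their height has no meaning. Prelp is unshared in the first bar of normal culture, where 92% were shared.

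Prelp, whose leucine-rich repeat protein binds collagen and heparan sulfate, had the highest-ranked window of the group. It held rank 53 in normal culture and lay 20.8 kb upstream of the transcription start site (TSS) of its transcript NM_054077, between genes. Of the 449 windows found in normal culture alone it was number 2 by rank. The only protein-coding genes of the GENCODE M1 annotation within 100 kb were Prelp, Optc (opticin, 34.1 kb) and Fmod (fibromodulin, 95.1 kb), and all 3 encode leucine-rich repeat matrix proteins. The deposited gene and the nearest GENCODE M1 gene were the same. The IL-1β list had its nearest window 151 kb away, given to the antiproliferative gene Btg2 at rank 863 and not shared. Farther out, a window 494.2 kb upstream of the Prelp TSS was shared (rank 247 in IL-1β, 857 in normal culture). So were windows 638.8 kb upstream (24 in IL-1β, 60 in normal culture) and 969.2 kb downstream (406 in IL-1β, 754 in normal culture). Windows 992.4 kb upstream (rank 786) and 817.3 kb downstream (rank 540) were in IL-1β alone.

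Comp and Matn1, genes of adaptor proteins that are abundant in cartilage and bind collagen fibrils, each had a low-ranked window in 1 condition. The Comp window was at rank 859 in normal culture, 1.48 kb upstream of its TSS (NM_016685) and between genes, with Comp also the nearest GENCODE M1 gene and Crtc1 the next at 10.3 kb. It was closer to its TSS than 82% of normal-culture windows were to theirs. The nearest IL-1β window was 622 kb away, at rank 239. Matn1 showed the opposite arrangement. Its window was at rank 918 in IL-1β, 171 kb downstream of its TSS (NM_010769) and past the end of the gene, in a stretch where Matn1, 159.9 kb away, was still the nearest protein-coding gene and Laptm5 the next at 179.3 kb. In normal culture the nearest window was 2010 kb away. Only 15.1% of IL-1β windows lay farther from their deposited TSS.

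Fn1, the gene of fibronectin, was the only member named in both lists, at sites 235 kb apart. In normal culture the window was at rank 624 and centred 0.372 kb upstream of the Fn1 TSS (NM_010233), closer than 86.1% of windows of that list were to theirs. GENCODE M1 places it in an intron of Apol7d, which starts on the opposite strand 0.705 kb away and which RefSeq lists as a long non-coding RNA, so by gene body Apol7d and by TSS Fn1 was nearest. In IL-1β the window was at rank 889 and 234.9 kb upstream of Fn1, and 9.9% of windows of that list lay farther from their deposited TSS. By GENCODE M1 the nearest protein-coding entry there was Gm5528 (116.2 kb), a pseudogene in RefSeq. The whole window sequence was found in the RefSeq promoter (GRCm38.p6) of the long non-coding RNA gene Gm8883, with the window centre at −22 bp from its start. Neither Fn1 window had a counterpart in the other list. A window 470.7 kb upstream of Fn1, given to Mreg, was shared, at rank 673 in normal culture and 822 in IL-1β.

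Cilp was named by a window that lay at the promoter of another gene. At rank 932 in normal culture, it was 28.9 kb downstream of the Cilp TSS (NM_173385) and 13.5 kb past the end of Cilp, but 0.161 kb upstream of Clpx, which encodes the unfoldase of a mitochondrial protease. The whole sequence was found in the RefSeq promoter of Clpx. It held 10 CpG dinucleotides, a number reached by 15.2% of windows in normal culture, while the other 9 member windows held 0 to 4. Its Runx word, ACCGCA, was centred at −12.5 bp from the window centre. No other window of either list lay within 1000 kb of the Cilp TSS.

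Tnxb, the gene of tenascin-X, whose loss gives lax connective tissue in humans, had a shared site in intron 5 of its transcript NM_031176, 10.7 kb downstream of the TSS. It ranked 374 in IL-1β and 251 in normal culture, and the windows overlapped by 95 bp. The IL-1β list gave the site to Tnxb and the normal-culture list to Crebl1, an older name of the stress-response factor gene Atf6b, which lies 26.2 kb away by GENCODE M1. It held a pair of TGTGGT words on the same strand, with their starts 7 bp apart, centred at −2.5 and 4.5 bp from the centre of the IL-1β window. Such a pair was in 1.0% of IL-1β windows and 1.2% of normal-culture windows. The AP-1 word was 29.5 bp from the nearer Runx word, centre to centre. This was the only site of either list within 1000 kb of the Tnxb TSS.

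Anxa2 had the best-ranked shared site of the group, in intron 1 of NM_007585 and 4.7 kb downstream of the TSS. It ranked 134 in IL-1β and 161 in normal culture, and the windows overlapped by 90 bp. Their ranks differed by 27, less than in 87.1% of the 551 shared pairs, whose median difference was 141, and those of Tnxb differed by 123, less than in 55.7%. The normal-culture list gave the Anxa2 site to Narg2 (Ice2 in RefSeq), a gene whose product acts in transcription of small nuclear RNAs and whose body lies 25.3 kb away. Of all shared pairs 21.1% carried different genes, as did both of these. The Runx and AP-1 words of the IL-1β window were at opposite ends, 87.5 bp apart. The normal-culture window began 10 bp farther on and kept the AP-1 word, while the Runx word was then centred at −52.5 bp from its centre and mostly outside. A second shared site lay 21.6 kb upstream of the Anxa2 TSS, given to Narg2 in both lists, at rank 221 in IL-1β and 124 in normal culture.

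**Figure D4:**
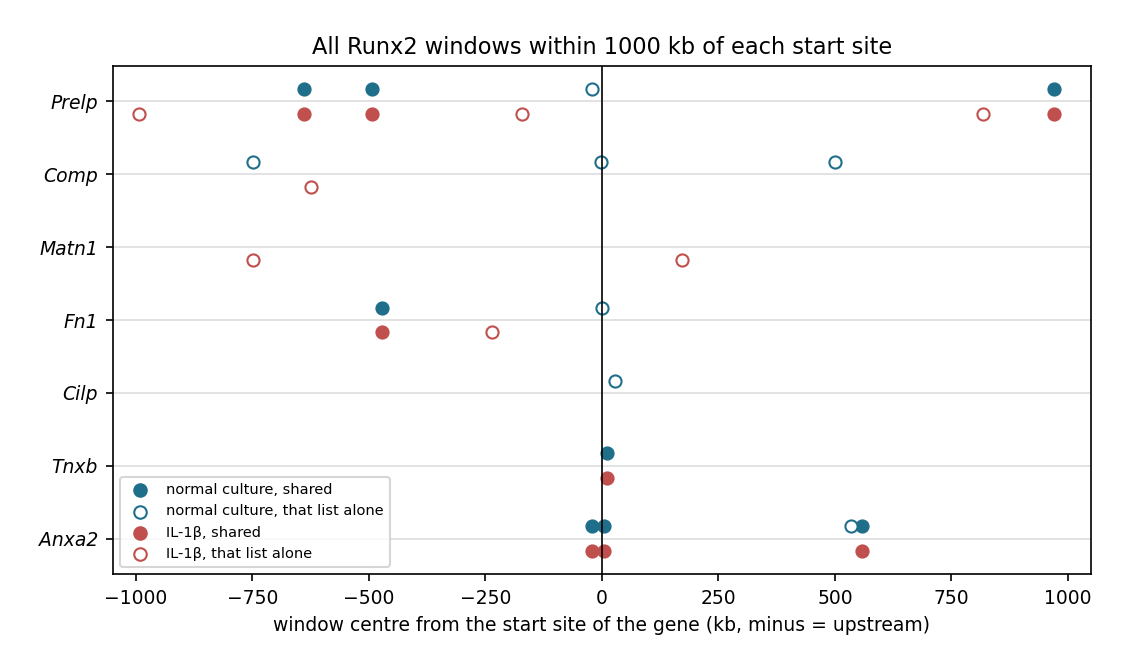
All windows of both lists within 1000 kb of the TSS of each member gene. The x axis is the distance of the window centre from the TSS in kb (minus is upstream), each row is a gene, and filled points are shared windows while open points are in 1 list alone. Prelp has 6 IL-1β and 4 normal-culture windows, Cilp 0 and 1, and only Anxa2 and Tnxb have filled points at the gene itself.

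The sites differed in place and base composition. The distance to the TSS ran from 0.372 kb to 234.9 kb, with 4 sites upstream and 4 downstream. By GENCODE M1 the sites were between genes at 5, in introns of their own gene at 2 and in an intron of Apol7d at 1. Of those 5, the distal Fn1 site lay at the start of Gm8883 by RefSeq, and the Cilp site in the RefSeq promoter of Clpx. The GC content ran from 48.5 to 63.4%, where the median over all windows was 53.5% in normal culture and 52.5% in IL-1β. All 70 words of 32 bp in each of the 10 windows occurred at 1 place in the mm9 assembly. In the RefSeq promoters of the members (250 bases before to 50 after the start) the Runx motif was found at Cilp and Matn1, with 1 word each, and not at Prelp, Tnxb and Anxa2, where 22.4% of 32851 promoters held it. Comp and Fn1 were not matched.

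Other non-collagen matrix genes were named by windows too. In a list of 95 such genes, which holds the 7 members and was made with earlier results of these data known, each condition named 9 (9.47%), where 4.06% and 3.99% of 21900 protein-coding genes were. The counts contain the members, which were chosen for having a window, so these shares cannot be compared with those of all genes. Beside the members 8 genes were named in either list. In the rank pairs that follow, normal culture comes first and IL-1β second. Sites of 4 were shared: Ltbp1, of a latent TGF-β binding protein, in the gene at ranks 212 and 83; Thbs1 (thrombospondin 1), 380 kb upstream at 113 and 195; the aggrecan gene Acan, 62.9 kb upstream at 250 and 212; and Tgfbi, of a TGF-β-induced adhesion protein, at 463 and 916. The Tgfbi window of normal culture lay 3.79 kb upstream of its TSS. Thbs1 had 2 windows in normal culture, of which the higher-ranked is given. Podnl1 (rank 711), Spock2 (460) and Mfap5 (1000) were in normal culture alone, and Anxa13 (926) in IL-1β alone. By family, windows named 2 of 16 leucine-rich proteoglycans, 1 of 10 large proteoglycans and link proteins, 2 of 5 thrombospondins, 1 of 4 matrilins, 3 of 20 fibronectin, fibulin and elastic fibre genes, 1 of 4 tenascins, 2 of 12 annexins and 3 of 24 others in either list, with the members included. That made 15 of 95 (15.8%), of which 8 were not members, where 5.94% of protein-coding genes were named in either list. By the nearest GENCODE M1 gene 10 and 8 of the 95 were named. With that annotation the Anxa2, Tnxb, Acan and Ltbp1 sites carried the same gene in both conditions, while Cilp, Fn1 and Mfap5 were no longer named.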

How the data were processed

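Alignment was to mm9 by Bowtie2 2.2.2 (submitters' processing notes). For each condition the authors compared anti-FLAG with input reads in CisGenome, and deposited 1000 windows with a nearby RefSeq transcript for each. The deposited values are window positions and a running number, taken here as the authors' order of peaks. Scores and depth were not used here, and neither were the IgG libraries. Whether starts count from 0 or from 1 is not given in the sources used here.

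The member genes, gene lists and alternatives were chosen with earlier results of these data known. The genes named are the members, the genes that other sources give their sites, and all genes of the matrix list with a window. Other neighbouring genes in the text were picked after their values were seen. The AP-1, CCAAT, E-box, ETS and SOX words were added after the sequences had been seen. Overlaps were counted in Python 3.11.15 (numpy 2.4.6, pandas 2.3.3) and with bedtools 2.31.1. Nearest protein-coding genes came from GENCODE M1, made on the same assembly as mm9, and sequence was read from that assembly with pysam 0.24.0. Names were matched through a RefSeq table of GRCm38.p6, which held all 95 genes of the matrix list. Motifs were searched on both strands. Wilson 95% intervals (statsmodels 0.14.6) cover counting error only. Window centres were used for all distances. The steps were tested on simulated data.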

Additional observations from a re-analysis of the deposited data

How the results depend on the processing

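The shared member sites were Anxa2 and Tnxb under each alternative run: an overlap of at least 50 bp, centres within 200 or 1000 bp, and the upper 500 windows of each list, which held 3 of the 8 sites. Over all windows 551 were shared, and 293 within the upper 500. Sites with a Runx motif numbered 3, and 6 when the last base could be C or T (76.9% and 73.1% of all windows then held it in normal culture and IL-1β) and 5 within 300 bp around the centre (80.2% and 78.5%). Reading starts from 0 left 3. The deposited gene was the nearest by gene body at 5 of 8 sites and by TSS at 6. Of the matrix list, 4 genes were named in the upper 500 windows of normal culture and 5 in those of IL-1β, against 9 in each full list, which is 4.21% and 5.26% of the list, where 2.11% and 2.08% of all protein-coding genes were named in these shorter lists. The matrix counts contain members here too, so these shares cannot be compared with those of all genes either. No paired analysis was possible because each condition had 1 library. The depth behind each window is unknown.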
